A study of Homo sapiens with 13 samples.

Results

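The cadherins described here are 10 genes, CDH1, CDH2, CDH3, CDH4, CDH5, CDH6, CDH11, CDH13, CDH16 and CDH17, taken as the array rows that the platform annotation gives to that symbol alone. The rule that takes a gene to its row uses no measured difference between groups, but the list of symbols was drawn up with earlier results of these data known. 8 of the 10 had such a row, 1 row each, among 18377 genes tested, and CDH4 and CDH13 are not analysed here. RNA was measured on 13 Affymetrix whole-transcript arrays, 1 per flask, in HepG2S1 and in HepG2. HepG2 is a human liver cancer line, labelled as hepatoblastoma, and sorafenib is a kinase inhibitor given against liver cancer. HepG2S1 is a sorafenib-resistant derivative that the submitters raised from HepG2 over months of slowly increasing dose and then kept in the drug, which was dissolved in DMSO. HepG2S1 was grown with 6 µM sorafenib at 2% O2 in 3 flasks, without the drug after its withdrawal at 20% O2 in 3 flasks, and with 6 µM sorafenib at 20% O2 in 4 flasks. HepG2 was grown at 20% O2 in 3 flasks and had received no sorafenib. Every flask was harvested after 72 h. HepG2S1 as measured is 1 derived line, so that a difference from HepG2 holds the derivation, the months of culture and the drug together. That it descends from HepG2 is taken from the labels, and no genotype was examined here. The labels do not say whether flasks of a group came from separate cultures, and a p-value here rests on flask-to-flask spread that may be technical.

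Cadherins are calcium-dependent adhesion proteins of the cell surface. Their extracellular repeats bind cadherins of the neighbouring cell, and the cytoplasmic tail of the classical members binds p120-catenin and β-catenin or plakoglobin, with α-catenin linking the complex to actin in the adherens junction. CDH1 (E-cadherin), CDH2 (N-cadherin), CDH3 (P-cadherin) and CDH4 (R-cadherin) are type I classical cadherins, and CDH5 (VE-cadherin), CDH6 (K-cadherin) and CDH11 (OB-cadherin) are of type II. CDH13 (T-cadherin) has a lipid anchor in place of a tail. CDH16 (Ksp-cadherin, of kidney) and CDH17 (LI-cadherin, first described in rat liver and intestine) have extra repeats and short tails. Hepatocytes carry both E-cadherin and N-cadherin at their contacts. A lower CDH1 with a higher CDH2, known as a cadherin switch, is a textbook mark of the epithelial-to-mesenchymal transition, which the series title names as its subject.

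Promoter sequences from RefSeq (GRCh38.p14) were matched by symbol for 2 of the 10 genes, and CDH2 is the 1 of them that was measured. Its windows are shown because SNAI2, ZEB1, ZEB2 and TWIST1, whose levels are given further on, encode proteins that bind E-boxes, the motif CANNTG. Each line gives the 250 bases before a start, 5′ to 3′, with any E-box in capitals.
CDH2, chr18:28177131-28177380, minus strand, at the start of the gene: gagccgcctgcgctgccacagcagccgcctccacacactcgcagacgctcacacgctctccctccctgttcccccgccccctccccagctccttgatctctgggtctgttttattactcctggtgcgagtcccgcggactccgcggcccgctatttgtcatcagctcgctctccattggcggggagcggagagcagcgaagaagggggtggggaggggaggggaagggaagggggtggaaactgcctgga
CDH2, chr18:28036642-28036891, minus strand, at a start inside the gene: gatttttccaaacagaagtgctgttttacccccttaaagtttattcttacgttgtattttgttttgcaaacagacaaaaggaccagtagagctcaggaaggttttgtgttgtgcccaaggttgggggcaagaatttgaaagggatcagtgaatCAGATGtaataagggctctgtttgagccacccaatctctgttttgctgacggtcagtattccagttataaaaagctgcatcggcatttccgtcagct
The window at the gene start had a GC content of 66.0% and no CANNTG, searched on both strands. The inner window had a GC content of 42.0% and 1 CANNTG, the CAGATG that begins 97 bases before the start. Neither held CACCTG or CAGGTG, the form known from the CDH1 promoter, which is a subset of CANNTG. Among 35116 windows of that length, 61.8% held CANNTG and 17.5% held CACCTG or CAGGTG, and the median GC content was 58.0%. The absence of a motif in these windows says only that those letters are not there.

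Array medians lay between 7.30 and 7.42 on the log2 scale, and the number of arrays limits the precision. Across all rows, arrays of 1 group correlated at 0.995 to 0.998, and HepG2S1 arrays correlated with HepG2 arrays at 0.913 to 0.923. The table holds no detection calls, so 5.76, the median over arrays of the lower quartile of all rows, is used as a mark of low signal. Of 10 hepatocyte markers 8 were measured, and their array means were 5.92 to 5.98 in HepG2S1 with sorafenib at 2% O2, 5.97 to 6.03 in withdrawn HepG2S1 and 5.99 to 6.05 in HepG2S1 with sorafenib at 20% O2, against 12.7 to 12.8 in HepG2. ALB, AFP and FGB had group means below 5.76 in each HepG2S1 group, so these defining markers were at low signal there. A gene is called here where its limma p, adjusted over all 18377 genes of a comparison, is under 0.05. All 8 were called lower in each HepG2S1 group than in HepG2, against 27.2% of all genes with the drug at 20% O2, 27% after withdrawal and 30.6% with the drug at 2% O2, and they moved with every cadherin difference between the lines given here. Their part in those differences was not tested.

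CDH1, the cadherin of epithelial adherens junctions, had log2 values of 5.93, 5.86 and 5.70 in HepG2S1 with sorafenib at 2% O2, 5.94, 6.04 and 6.01 in withdrawn HepG2S1, 5.92, 5.97, 5.90 and 5.92 in HepG2S1 with sorafenib at 20% O2, and 10.68, 10.35 and 10.34 in HepG2. Each of the 10 HepG2S1 arrays was far below each HepG2 array. Within each HepG2S1 array CDH1 stood at the 14.7 to 19.3 percentile of the genes tested, and within each HepG2 array at the 86.0 to 89.9 percentile. HepG2S1 with sorafenib at 20% O2 averaged 5.93 ± 0.03 (SD, n = 4) and HepG2 10.46 ± 0.19 (SD, n = 3), a log2 fold change of -4.53 ± 0.08 (SE), or 23.1-fold lower, with an adjusted p of 2.13e-16 in limma. The log2 fold change was -4.46 ± 0.08 for withdrawn HepG2S1 and -4.63 ± 0.08 for HepG2S1 with sorafenib at 2% O2, which is 22.0-fold and 24.7-fold lower than HepG2, with limma adjusted p of 6.28e-16 and 4.2e-16. These comparisons share the HepG2 arrays. Counted from the most negative fold change, CDH1 was number 120 of 18377 genes with the drug at 20% O2, 126 after withdrawal and 118 with the drug at 2% O2. HepG2S1 values lay close to the mark of low signal, where RMA compresses differences, so the fold size is set in part by the floor of the array.

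CDH2, the N-cadherin of neural, mesenchymal and also hepatic cells, had log2 values of 12.13, 12.12 and 11.98 in HepG2S1 with sorafenib at 2% O2, 12.26, 12.19 and 12.23 in withdrawn HepG2S1, 12.21, 12.08, 12.12 and 12.16 in HepG2S1 with sorafenib at 20% O2, and 11.45, 11.39 and 11.29 in HepG2. Every HepG2S1 array lay above every HepG2 array, and its signal was in the upper part of the array's range in both lines, at the 97.7 to 98.5 percentile of genes in HepG2S1 and the 94.6 to 95.4 percentile in HepG2. CDH2 rose by 0.76 ± 0.06 (SE) on the log2 scale, or 1.70-fold, in HepG2S1 with sorafenib at 20% O2 over HepG2, with a limma adjusted p of 1.05e-08. It was 1.80-fold higher after withdrawal (log2 fold change 0.85 ± 0.06, limma adjusted p = 6.95e-09) and 1.62-fold higher with sorafenib at 2% O2 (0.70 ± 0.06, limma adjusted p = 6.98e-08). The change was of modest rank, number 2127 from the most positive fold change with the drug at 20% O2. Signal of 1 row cannot be set against that of another, so no ratio of CDH2 to CDH1 is given.

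CDH3, the P-cadherin of placenta and basal epithelial layers, had log2 values of 7.30, 7.52 and 7.17 in HepG2S1 with sorafenib at 2% O2, 7.23, 7.08 and 7.22 in withdrawn HepG2S1, 7.08, 7.01, 7.08 and 7.14 in HepG2S1 with sorafenib at 20% O2, and 6.52, 6.38 and 5.95 in HepG2. All HepG2S1 arrays were above all HepG2 arrays, and the HepG2 arrays were the most scattered, at 6.28 ± 0.30 (SD, n = 3). Its signal was in the lower part of the array's range, at the 32.7 to 42.6 percentile of genes in HepG2S1 and the 17.8 to 25.6 percentile in HepG2. CDH3 rose by 0.79 ± 0.11 (SE), 1.73-fold, with sorafenib at 20% O2, with a limma adjusted p of 1.25e-05. The log2 fold change from HepG2 was 0.90 ± 0.12 after withdrawal and 1.05 ± 0.12, or 2.06-fold, with the drug at 2% O2, with limma adjusted p of 7.33e-06 and 1.28e-06. Of 10 markers of squamous and basal epithelium 7 were measured, and 4 of the 7 (KRT5, SERPINB3, SERPINB5 and SFN) were also called higher with the drug at 20% O2, none lower, against 30.1% higher and 27.2% lower over all genes. With the drug at 2% O2, where CDH3 was highest, these 4 were called higher and KRT13 lower, against 30.6% of all genes in each direction. After withdrawal these 4 and KRT14 were called higher and none lower, against 29.6% higher and 27% lower over all genes. KRT5, KRT13, SERPINB3 and SERPINB5 were called lower at 2% O2 than after withdrawal, against 7.73% of all genes. The array means of the 7 were 8.36 to 8.49 in HepG2S1 with sorafenib at 2% O2, 8.79 to 8.85 in withdrawn HepG2S1 and 8.32 to 8.38 in HepG2S1 with sorafenib at 20% O2, against 6.81 to 6.94 in HepG2, and their part in the CDH3 difference was not tested.

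**Figure D1:**
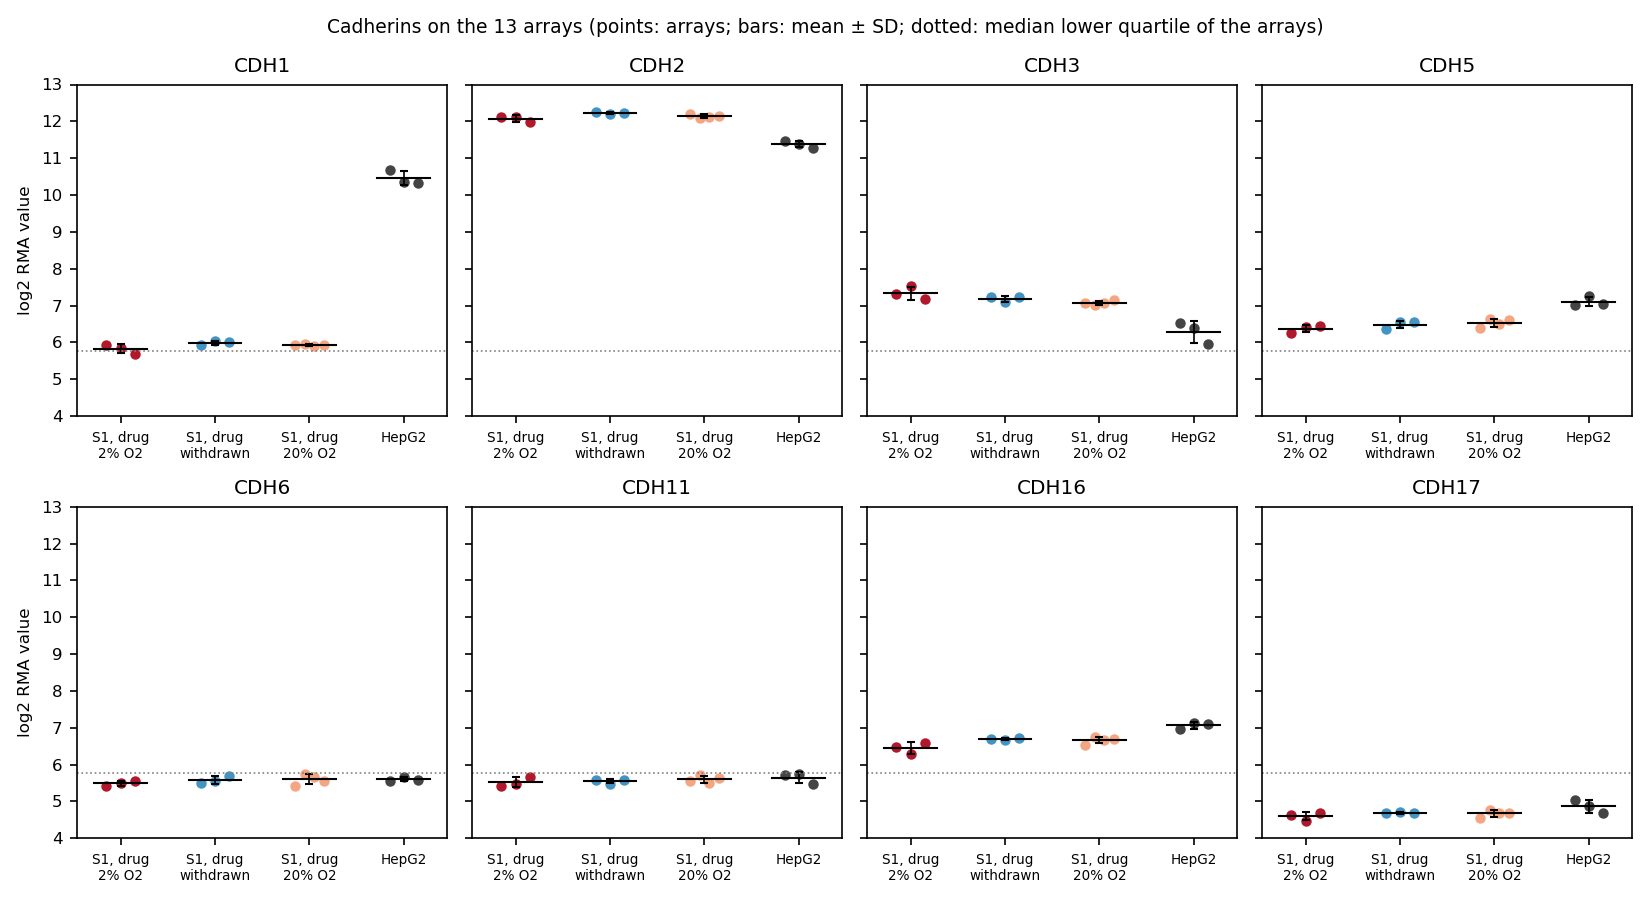
The log2 array value of each of the 8 measured cadherins (1 panel each) in every flask, with points for arrays, bars for the group mean and SD, and groups from left to right HepG2S1 with sorafenib at 2% O2 (n = 3), withdrawn HepG2S1 (n = 3), HepG2S1 with sorafenib at 20% O2 (n = 4) and HepG2 (n = 3). CDH1 sits between 5.70 and 6.04 on the HepG2S1 arrays, against 10.34 to 10.68 on the HepG2 arrays, and no other cadherin shows a step of that size.

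CDH3 and CDH1 lie side by side on chromosome 16 in the RefSeq annotation of GRCh38.p14, and they moved in opposite directions between the lines. The order of the protein-coding genes tested around them is PRMT7, SMPD3, ZFP90, CDH3, CDH1, TANGO6, HAS3 and CHTF8. Of the 6 flanking genes, CHTF8 alone was called between HepG2S1 with sorafenib at 20% O2 and HepG2, with a log2 fold change of 0.29 ± 0.06 (SE) and a limma adjusted p of 5.26e-04. The log2 fold changes of the other 5 lay between -0.15 for ZFP90 (limma adjusted p = 0.0551) and 0.05 for HAS3 (limma adjusted p = 0.593). In the other groups more of them were called against HepG2: ZFP90 after withdrawal (-0.30, limma adjusted p = 0.00131), and PRMT7 (-0.25, limma adjusted p = 0.00155) and TANGO6 (-0.16, limma adjusted p = 0.0194) with the drug at 2% O2. CHTF8 was called too, higher by 0.51 after withdrawal and by 0.55 at 2% O2. The largest flanking fold change from HepG2 was thus 0.55, where those of CDH1 lay between -4.63 and -4.46. Over all genes 57.3% were called with the drug at 20% O2, 56.6% after withdrawal and 61.2% with the drug at 2% O2. The counts of flanking genes called are therefore not read as particular to this region. In all, 6 of the 10 chosen cadherin genes are on chromosome 16 (CDH1, CDH3, CDH5, CDH11, CDH13 and CDH16), and the 5 measured ones did not move in 1 direction.

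CDH5, the VE-cadherin of endothelial junctions, had log2 values of 6.26, 6.42 and 6.44 in HepG2S1 with sorafenib at 2% O2, 6.36, 6.55 and 6.54 in withdrawn HepG2S1, 6.38, 6.62, 6.49 and 6.62 in HepG2S1 with sorafenib at 20% O2, and 7.02, 7.25 and 7.04 in HepG2. The HepG2 arrays were all higher than the HepG2S1 arrays. Signal was in the lower part of the array's range, at the 23.1 to 26.8 percentile of genes in HepG2S1 and the 33.5 to 36.2 percentile in HepG2. CDH5 fell by 0.58 ± 0.08 (SE) on the log2 scale with sorafenib at 20% O2, or 1.49-fold, with a limma adjusted p of 1.17e-05. The log2 fold change was -0.62 ± 0.09 after withdrawal and -0.73 ± 0.09 with the drug at 2% O2, with limma adjusted p of 1.21e-05 and 1.95e-06. Of 9 other endothelial markers, 4 (PECAM1, KDR, TIE1 and ESAM) were called lower with the drug at 20% O2 and none higher, against 30.1% higher and 27.2% lower over all genes. After withdrawal the same 4 were called lower and none higher, against 29.6% higher and 27% lower over all genes. With the drug at 2% O2 these 4 and CLDN5 were called lower and TEK higher, against 30.6% of all genes in each direction. The array means of the 9 were 6.04 to 6.17 in HepG2S1 with sorafenib at 2% O2, 6.10 to 6.19 in withdrawn HepG2S1 and 6.09 to 6.17 in HepG2S1 with sorafenib at 20% O2, against 6.37 to 6.45 in HepG2, and TEK, ERG and EMCN were below 5.76 in HepG2 too. What these low signals have to do with CDH5 was not tested.

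CDH16, the cadherin of kidney tubule cells, had log2 values of 6.47, 6.29 and 6.59 in HepG2S1 with sorafenib at 2% O2, 6.71, 6.68 and 6.72 in withdrawn HepG2S1, 6.54, 6.76, 6.66 and 6.70 in HepG2S1 with sorafenib at 20% O2, and 6.96, 7.12 and 7.11 in HepG2. It was lower on every HepG2S1 array than on any HepG2 array. Its signal was in the lower part of the array's range, at the 23.4 to 29.0 percentile of genes in HepG2S1 and the 32.6 to 35.5 percentile in HepG2. The log2 fold change from HepG2 was -0.40 ± 0.07 (SE) with the drug at 20% O2, -0.36 ± 0.08 after withdrawal and -0.61 ± 0.08 with the drug at 2% O2, with limma adjusted p of 0.00018, 0.000783 and 4.59e-06. Of 6 measured kidney tubule markers, SLC34A1 was called higher and PAX8 lower with the drug at 20% O2, against 30.1% higher and 27.2% lower over all genes. PAX8 alone was called, lower, after withdrawal, against 27% lower over all genes. PAX8 and SLC12A3 were called lower with the drug at 2% O2, against 30.6% lower over all genes. The array means of the 6 were 6.55 to 6.64 in HepG2S1 with sorafenib at 2% O2, 6.62 to 6.68 in withdrawn HepG2S1, 6.65 to 6.78 in HepG2S1 with sorafenib at 20% O2 and 6.62 to 6.87 in HepG2. Within HepG2S1, SLC34A1 was called lower, at -0.27, at 2% O2 than at 20% O2 under the drug (limma adjusted p = 0.0159), and the part of these markers in the CDH16 values was not tested.

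CDH17, CDH6 and CDH11 stayed below the mark of low signal in every group mean. CDH17 had log2 values of 4.62, 4.48 and 4.69 in HepG2S1 with sorafenib at 2% O2, 4.67, 4.71 and 4.69 in withdrawn HepG2S1, 4.55, 4.77, 4.69 and 4.69 in HepG2S1 with sorafenib at 20% O2, and 5.05, 4.88 and 4.69 in HepG2. The third HepG2 array lay among the HepG2S1 values with the drug at 20% O2, so these groups overlapped. The log2 fold change from HepG2 was -0.19 ± 0.08 (SE) with the drug at 20% O2, just past the threshold with a limma adjusted p of 0.0493, and the call was lost in 14 of the alternative settings, where the adjusted p reached 0.279. It was -0.18 after withdrawal (limma adjusted p = 0.0892) and -0.27 with the drug at 2% O2 (limma adjusted p = 0.0119), a call lost in 4 settings. Of 7 intestinal markers VIL1 and FABP2 were called lower with the drug at 20% O2 and none higher, against 30.1% higher and 27.2% lower over all genes.

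CDH6, a cadherin of fetal kidney, ranged from 5.43 to 5.74 over the 13 arrays, and CDH11, a cadherin of osteoblasts and fibroblasts, from 5.43 to 5.76. Neither was called in any of the 6 comparisons, and the arrays of all groups overlapped. With the drug at 20% O2 the log2 fold change from HepG2 was -0.01 for CDH6 (95% interval -0.17 to 0.15, limma adjusted p = 0.924) and -0.05 for CDH11 (-0.22 to 0.12, limma adjusted p = 0.667). Of 2664 genes with a mean below 5.76, 164 were called higher and 353 lower in the same comparison. These are smaller shares than the 30.1% higher and 27.2% lower over all genes. Calls were thus made at this signal, but less often, and a missing call says less there. CDH11 gave no call in that comparison. Of 10 fibroblast and stellate markers 2, DCN and LUM, were called higher and 2, ACTA2 and RELN, lower. The shares over all genes were 30.1% higher and 27.2% lower, so these counts are not read as particular to the markers. The changes of these 4 were large, however. DCN averaged 10.59 with the drug at 20% O2 against 5.16 in HepG2, and LUM 10.21 against 5.20. RELN averaged 6.03 against 11.79 and ACTA2 9.03 against 11.02. Their part in the cadherin differences was not tested.

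Counted together, 6 of the 8 cadherins were called between HepG2S1 with sorafenib at 20% O2 and HepG2, CDH2 and CDH3 higher and CDH1, CDH5, CDH16 and CDH17 lower. Of all genes tested 57.3% were called in that comparison, 30.1% higher and 27.2% lower, so the count for the cadherins is not read as particular to them. After withdrawal 5 of 8 were called, 2 higher and 3 lower, against a background of 56.6% in either direction, 29.6% higher and 27% lower. With the drug at 2% O2 6 of 8 were called, 2 higher and 4 lower, against 61.2%, of which 30.6% higher and 30.6% lower. The arrays did not overlap for CDH1, CDH2, CDH3, CDH5 and CDH16 in any of these comparisons, where the shares over all genes were 56.2% with the drug at 20% O2, 60.4% after withdrawal and 63.5% with the drug at 2% O2. The median log2 fold change of the 8 was -0.12, against 0.01 over all genes, with the drug at 20% O2, -0.14 against -0.01 after withdrawal, and -0.20 against -0.05 with the drug at 2% O2. Scaling arrays to their 75th percentile moved the medians of the last comparison to -0.30 for the 8 and -0.15 for all genes. Across the 8 genes and 3 comparisons with HepG2, CDH1 had the largest fold changes, and the next in size was the 1.05 of CDH3.

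**Figure D2:**
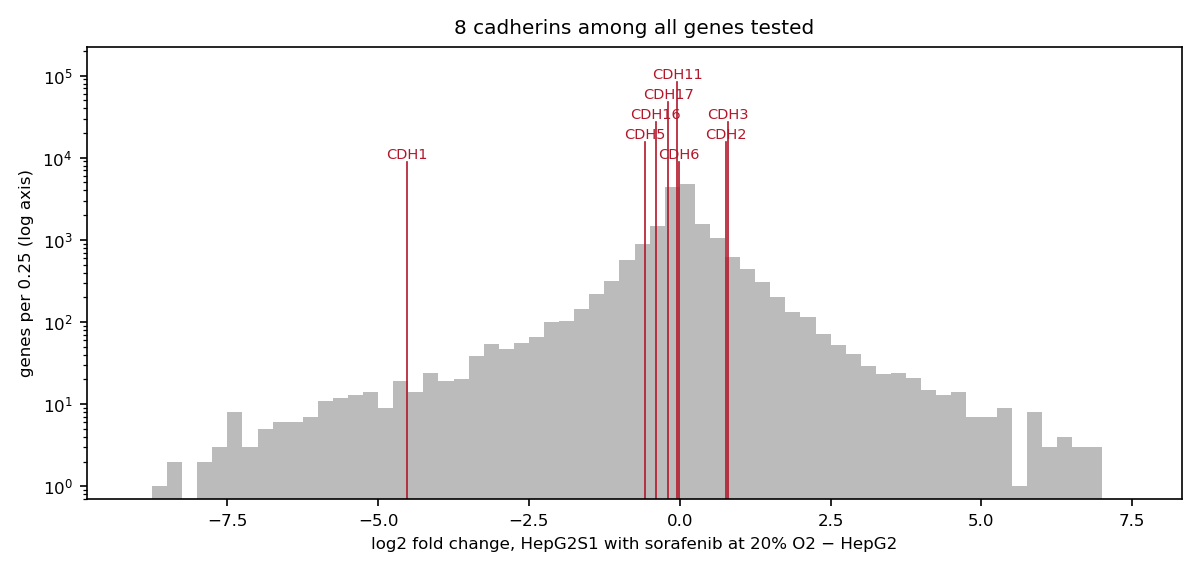
Log2 fold change (horizontal axis) of HepG2S1 with sorafenib at 20% O2 minus HepG2 for all 18377 genes, as a histogram with a log-scaled number of genes on the vertical axis, and the 8 cadherins marked. CDH1 lies in the far left tail at -4.53, while the other 7 lie between -0.58 and 0.79, inside the main body of genes.

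Within HepG2S1, taking the drug away left no measured cadherin with a called difference. In limma 0 of 8 were called for withdrawn HepG2S1 against HepG2S1 with sorafenib at 20% O2, against 18% of all genes. At an unadjusted p under 0.05 there were also 0 of 8, against 28.7% of all genes, and no cadherin was free of overlap between the groups, against 30.2%. For CDH1 the log2 difference was 0.07, with a 95% interval of -0.10 to 0.23 and a limma adjusted p of 0.656. At 72 h without the drug, a rise in array signal of more than 0.23 on the log2 scale lay outside the interval. Both groups lay close to the mark of low signal, where RMA compresses differences. The interval therefore bounds the signal and not the transcript level. For CDH2 the difference was 0.08 (95% interval -0.04 to 0.21, limma adjusted p = 0.379) and for CDH3 0.10 (-0.13 to 0.34, limma adjusted p = 0.613). The differences of the other 5 lay between -0.05 and 0.04.

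At 2% O2 against 20% O2 under the drug, again 0 of 8 were called in limma, while 15.2% of all genes were. At an unadjusted p under 0.05 there were 2, CDH3 and CDH16, against 31.4% of all genes. CDH3 was higher on every 2% O2 array than on any array at 20% O2, with a log2 difference of 0.25 (95% interval 0.02 to 0.49) and a limma adjusted p of 0.136. It was the 1 cadherin of 8 without overlap, against 28.2% of all genes. CDH16 had a difference of -0.21 (-0.37 to -0.06) and a limma adjusted p of 0.0629, and CDH1 one of -0.10 (-0.27 to 0.07) and 0.409. Some of these sat near the threshold: CDH3 passed when the HepG2S1 arrays were fitted alone (limma adjusted p = 0.0386) or without HepG2 replicate 3 (0.037), and CDH16 passed in 4 settings.

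Between HepG2S1 with sorafenib at 2% O2 and withdrawn HepG2S1, where drug and oxygen differ together, CDH16 was the 1 cadherin called of 8, lower at 2% O2, against 18.6% of all genes in either direction and 7.73% lower. Its log2 difference was -0.25 ± 0.08 (SE), with a 95% interval of -0.41 to -0.08 and a limma adjusted p of 0.0374, and the call was lost in 11 settings. CDH1, CDH2 and CDH16 did not overlap between these groups, 3 of 8 against 38% of all genes. The difference was -0.16 for CDH1 (limma adjusted p = 0.212) and -0.15 for CDH2 (limma adjusted p = 0.11).

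From low to high, the CDH1 means were in the order HepG2S1 with the drug at 2% O2, HepG2S1 with the drug at 20% O2, withdrawn HepG2S1 and HepG2, and the last step was the only one between neighbours that passed the test. The order within HepG2S1 differed between genes. For CDH5 and CDH16 too, the step up to HepG2 was the only one between neighbours that passed, and for CDH2 and CDH3, whose lowest mean was that of HepG2, the step from HepG2 to the next group. For CDH6, CDH11 and CDH17 no step between neighbours passed. The means of the 3 HepG2S1 groups spanned 0.16 for CDH1, 0.15 for CDH2 and 0.25 for CDH3, where the means of all 4 groups spanned 4.63, 0.85 and 1.05.

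**Figure D3:**
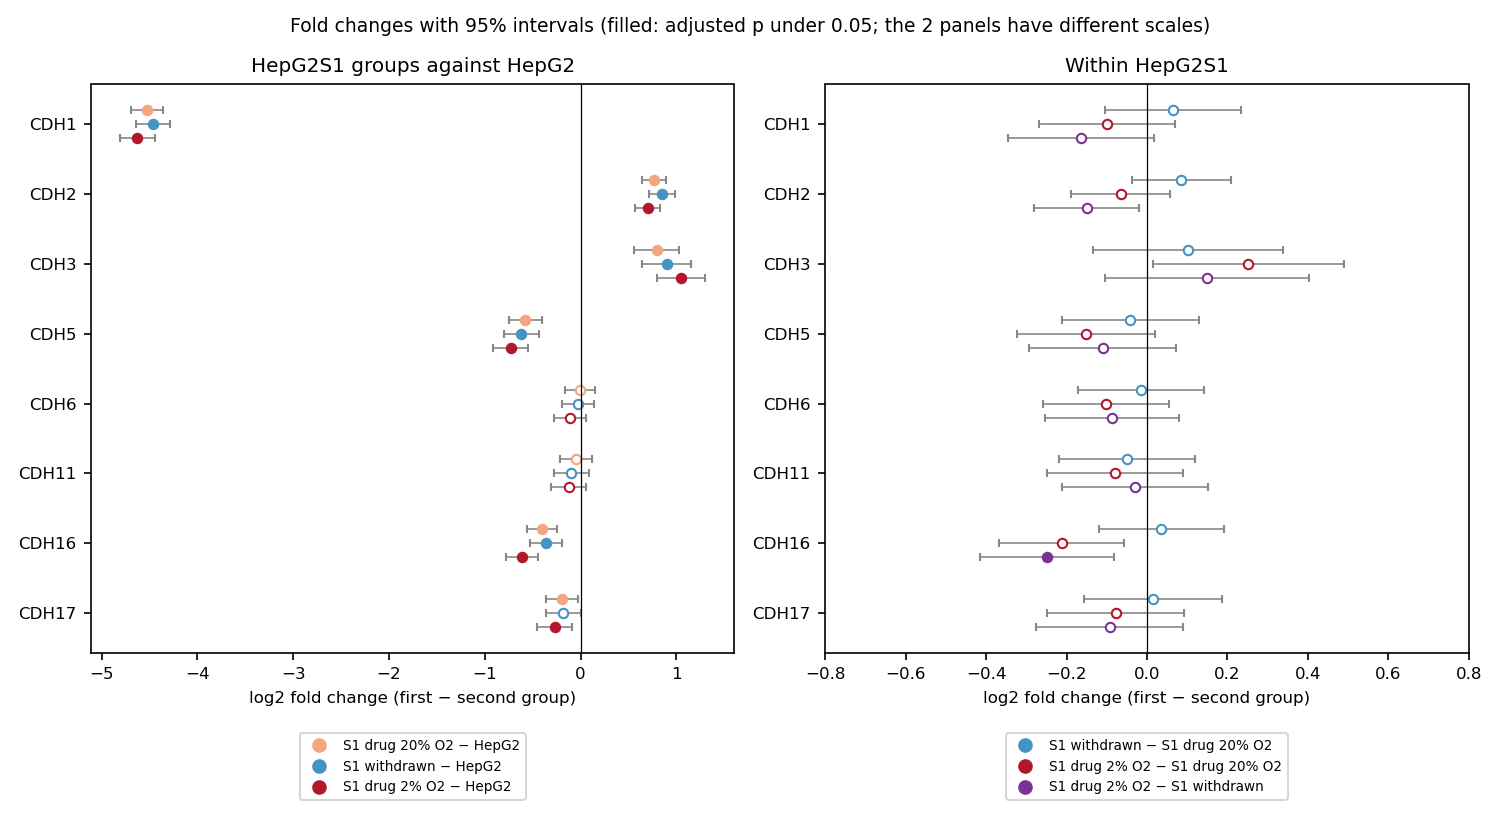
Log2 fold changes of the 8 cadherins with 95% intervals, first group minus second, for the HepG2S1 groups against HepG2 (left) and between HepG2S1 groups (right, on its own scale), with filled points for an adjusted p under 0.05. All 3 CDH1 points on the left lie between -4.63 and -4.46, and on the right CDH16 between the 2% O2 and withdrawn groups, at -0.25, is the 1 filled point.

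By the root mean square difference of mean-centred log2 values over the 13 arrays, the genes most like CDH1 were FMO5, a flavin monooxygenase (0.0757), ABCA1, a cholesterol exporter (0.100), and MAN1A1, a Golgi mannosidase (0.117). The 13 arrays are of 2 lines, and each of these genes had the step between them. FMO5 averaged 5.29 in HepG2S1 with sorafenib at 2% O2, 5.43 in withdrawn HepG2S1 and 5.40 in HepG2S1 with sorafenib at 20% O2, against 9.98 in HepG2. CDH3 was most like CEP350, a centrosome protein (0.0921), RB1CC1, an autophagy protein (0.105), and PLEKHA1, a membrane-lipid-binding protein (0.109).

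Of 13 further cadherin genes tested, 2 were called with the drug at 20% O2 against HepG2, where 57.3% of all genes were. CDH24, a type II cadherin that binds catenins, rose by 0.68 ± 0.07 (SE) on the log2 scale with a limma adjusted p of 2.42e-07. CDH15, the cadherin of muscle, had a log2 fold change of -0.24 ± 0.09 with a limma adjusted p of 0.0408, a call lost in 9 settings. The other 11 were not called. CDH7, CDH9, CDH10, CDH12, CDH18 and CDH19 had means below 5.76 in every group, so low signal limits them. At 2% O2 against HepG2, CDH24 was called higher and CDH15, CDH23 and CDH26 lower, against 30.6% of all genes in each direction. None of the 13 was called within HepG2S1 between withdrawn cells and cells with the drug at 20% O2, against 18% of all genes. Between 2% O2 and 20% O2 under the drug there was also none, against 15.2%.

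The list of catenins and their partners gave 4 genes higher and 4 lower of 12 tested with the drug at 20% O2. Over all genes 30.1% were called higher and 27.2% lower. CTNNB1 (β-catenin) averaged 12.58 ± 0.03 (SD, n = 4) in these cells and 12.93 ± 0.08 (SD, n = 3) in HepG2, a log2 fold change of -0.34 ± 0.05 (SE, limma adjusted p = 1.71e-05). Plakoglobin (JUP), which takes the place of β-catenin on the tail and also builds desmosomes, rose by 0.45 ± 0.06 (limma adjusted p = 1.06e-05). CTNNA1 (α-catenin) had a log2 fold change of -0.06 and a limma adjusted p of 0.319, and CTNND1 (p120-catenin) is not analysed here. VCL (vinculin), which binds α-catenin under tension and also serves focal adhesions, rose by 1.27 ± 0.06, while PLEKHA7, a p120-catenin binder of apical junctions, fell by 1.26 ± 0.08. PLEKHA7 also differed within HepG2S1, higher after withdrawal by 0.50 ± 0.08 (SE) than with the drug at 20% O2 (limma adjusted p = 0.000411), and at 2% O2 it was at -0.59 ± 0.08 from withdrawn cells (limma adjusted p = 0.000151).

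Nectins, the immunoglobulin-like partners of cadherins at adherens junctions, and their linker afadin gave 4 of 5 genes lower and none higher with the drug at 20% O2, against 30.1% higher and 27.2% lower over all genes. AFDN (afadin) averaged 8.03 ± 0.05 (SD, n = 4) in these cells and 10.42 ± 0.06 (SD, n = 3) in HepG2, a log2 fold change of -2.39 ± 0.06 (SE, limma adjusted p = 6.58e-15). NECTIN2 changed by -0.80, NECTIN4 by -0.51 and NECTIN1 by -0.27, all called, and NECTIN3 had 0.05 with a limma adjusted p of 0.544. At 2% O2 NECTIN3 was called higher, by 0.40 ± 0.07 (SE) over HepG2, 0.35 ± 0.07 over the drug at 20% O2 and 0.26 ± 0.07 over withdrawn cells, with limma adjusted p of 0.000126, 0.0024 and 0.0185, and the last of these calls was lost in 5 settings.

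Among 11 desmosome genes, which include the desmosomal cadherins, 2 were higher and 4 lower with the drug at 20% O2, against 30.1% higher and 27.2% lower over all genes. DSC2 (desmocollin 2) averaged 5.89 ± 0.10 (SD, n = 4) in these cells and 10.52 ± 0.12 (SD, n = 3) in HepG2. The log2 fold change of DSC2, -4.63 ± 0.09 (SE, limma adjusted p = 4.79e-16), was close in size to that of CDH1, and its HepG2S1 values too were near the mark of low signal. DSC3 fell by 0.56, with means below 5.76 in every group, HepG2 included. DSG2 (desmoglein 2) rose by 0.60 and PKP2 (plakophilin 2) by 0.55. PKP3, also among the 4 called lower, lost that call in 10 settings. With the drug at 2% O2 PKP3 was called higher than HepG2, with means of 8.83 and 8.59. It was also called higher after withdrawal and at 2% O2 than with the drug at 20% O2, where its mean was 8.45. PKP2 was higher by 0.49 ± 0.05 (SE) after withdrawal and by 0.48 ± 0.05 at 2% O2 than with the drug at 20% O2, with limma adjusted p of 1.0e-05 and 8.18e-06, and DSC2 was higher by 0.35 ± 0.09 at 2% O2 (limma adjusted p = 0.0132), a call lost without 1 of the 2% O2 arrays (limma adjusted p = 0.0785).

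Of 8 transcription factors known to repress CDH1, 7 were called higher and none lower with the drug at 20% O2, against backgrounds of 30.1% and 27.2%. After withdrawal and with the drug at 2% O2, 6 of 8 were called higher and none lower, against 29.6% and 30.6% of all genes called higher. This list was drawn up with earlier results of these data known, so its counts are not an independent test. SNAI2 (Slug) averaged 12.75 ± 0.01 (SD, n = 4) in these cells and 7.95 ± 0.26 (SD, n = 3) in HepG2, a log2 fold change of 4.80 ± 0.09 (SE, limma adjusted p = 2.68e-16). TWIST1 rose by 1.97 ± 0.05, ZEB2 by 1.66 ± 0.06 and ZEB1 by 1.09 ± 0.08, and the ZEB2 value was 0.96 when the rows of the gene were averaged. SNAI1 (Snail) had 0.21 ± 0.08, with a limma adjusted p of 0.0281 and overlapping arrays, a call lost in 8 settings. SNAI2 stayed high in all HepG2S1 groups, at 12.89 ± 0.05 (SD, n = 3) with the drug at 2% O2 and 12.85 ± 0.02 (SD, n = 3) after withdrawal. Within HepG2S1, TWIST1 was lower by 0.19 after withdrawal (limma adjusted p = 0.0164) and ZEB2 higher by 0.22 at 2% O2 (limma adjusted p = 0.0178), each a call that leaving out some single arrays ended. The ZEB2 call was also lost with 75th percentile scaling and when the rows of the gene were averaged. With averaged rows ZEB2 was called higher after withdrawal, by 0.26 over the drug at 20% O2 (limma adjusted p = 0.0466).

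Of 8 factors that promote epithelial genes, 2 were called higher and 2 lower with the drug at 20% O2, against 30.1% higher and 27.2% lower over all genes. GRHL1 fell by 1.89 ± 0.07 and ESRP2, a splicing factor of epithelia, by 0.91 ± 0.06, while KLF4 rose by 1.74 ± 0.09 and ELF3 by 0.45 ± 0.07 (SE) with the drug at 20% O2 against HepG2. ELF3 was higher by a further 0.86 ± 0.07 at 2% O2 over 20% O2 under the drug (limma adjusted p = 7.69e-07). ESRP2 and KLF4 were called higher there too and none of the 8 lower, against 15.2% of all genes in either direction. The ESRP2 call was lost in 2 settings and the KLF4 call in 5. After withdrawal ESRP2 alone was called, higher, against 18% of all genes. CDH1 had -0.10 at 2% O2 over 20% O2, close to the mark of low signal, and a link to these factors was not tested.

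Proteases known to process or shed cadherins gave 3 higher and 5 lower of 10 with the drug at 20% O2, against 30.1% higher and 27.2% lower over all genes. FURIN, which cleaves cadherin precursors, averaged 8.08 ± 0.03 (SD, n = 4) in these cells and 10.50 ± 0.07 (SD, n = 3) in HepG2, a log2 fold change of -2.42 ± 0.06 (SE, limma adjusted p = 8.56e-15). MMP3 fell by 1.33 ± 0.09, while MMP7 (matrilysin) rose by 1.81 ± 0.08 and ADAM15 by 1.66 ± 0.08. The MMP3 means were below 5.76 in every HepG2S1 group, so its fold size is set in part by the floor of the array. MMP7 was higher within HepG2S1 by 0.46 after withdrawal and by 0.80 at 2% O2, each over the drug at 20% O2, with limma adjusted p of 0.00146 and 1.31e-05.

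**Figure D4:**
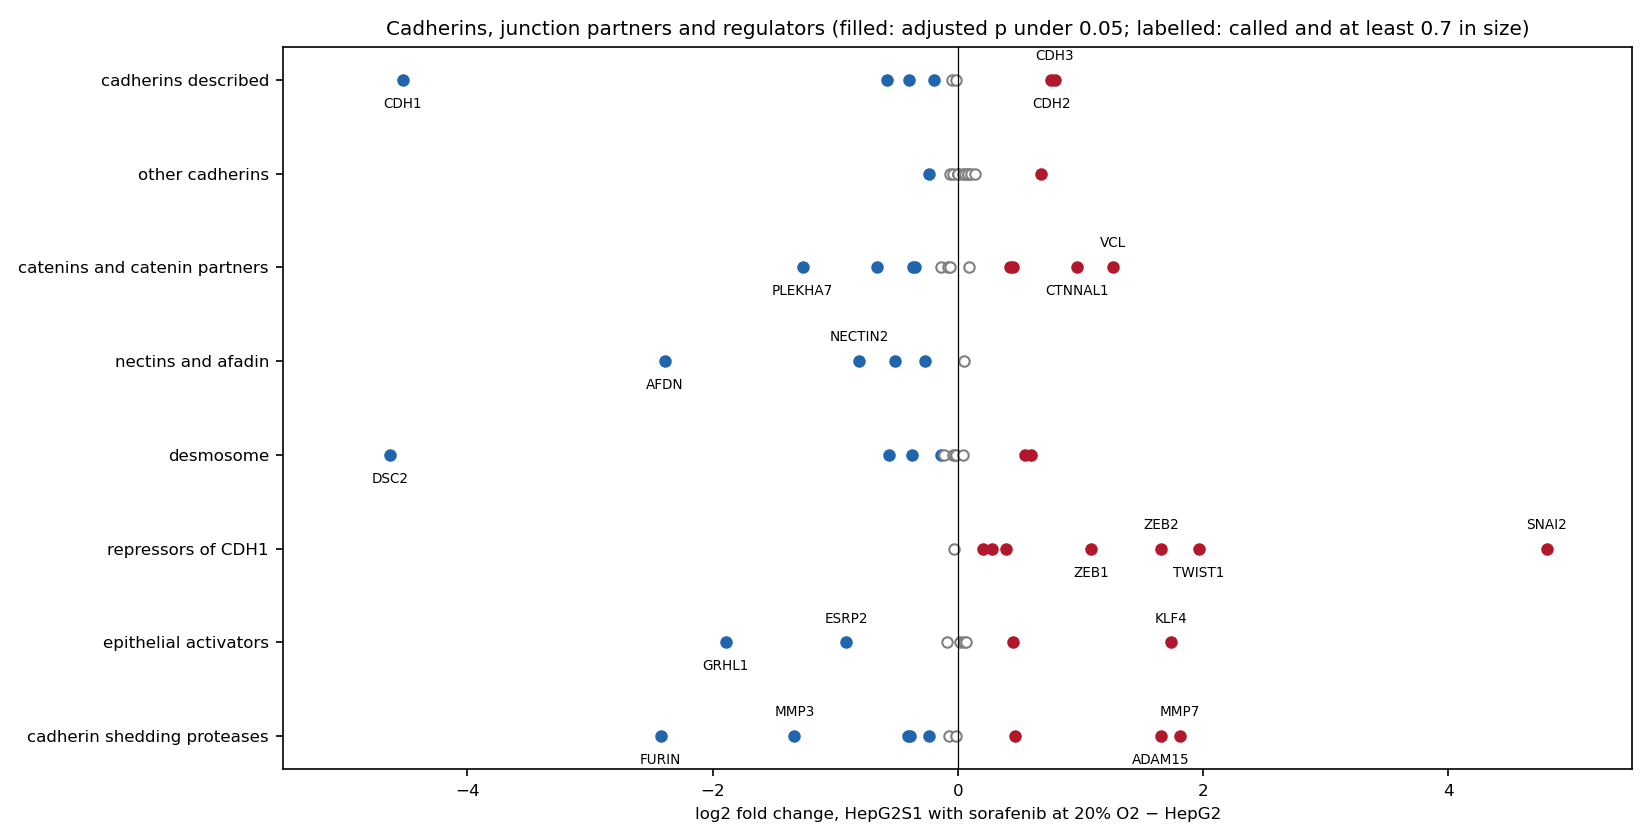
Log2 fold changes of HepG2S1 with sorafenib at 20% O2 minus HepG2 (horizontal axis) for every tested gene of 7 lists of cadherin partners and regulators and for the 8 cadherins, 1 row per list, with filled points for an adjusted p under 0.05. CDH1 at -4.53 and DSC2 at -4.63 stand at the left, and SNAI2 at 4.80 at the right.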

How the data were processed

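RNA of 13 flasks was measured on 13 Affymetrix whole-transcript arrays, in 4 groups set by the labels' cell line, drug and oxygen. The deposited values are log2 signals from RMA, according to the submitters' processing notes, and the authors supplied them as 1 table. The RMA version is not given in the sources used here. RMA corrects background, normalizes by quantiles and summarises probes, and it compresses low signals.

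Of 28926 rows 19310 had 1 gene symbol, 1752 several and 7864 none. Symbols were updated through Entrez IDs with RefSeq (GRCh38.p14), and each gene was represented by its row of highest mean, for 18377 genes. The 4 groups were fitted together in limma 3.58.1 (R 4.3.3; lmFit, eBayes), with Benjamini-Hochberg adjustment over all genes within each of 6 two-sided comparisons. A gene was called at an adjusted p under 0.05. Fold changes are the first group minus the second. The fit was tested on simulated data. The members and lists were chosen with earlier results of these data known, and list genes were named by the size of their change within fixed lists. Genes most like a cadherin were sought for those called with a log2 fold change of 1 or more, leaving out the Y chromosome. No scan date or batch is in the table. Figures used matplotlib 3.10.9 (Python 3.11.15).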

Additional observations from a re-analysis of the deposited data

How the results depend on the processing

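Over 24 alternative settings (robust and trend moderation, 2 groups alone, a filter on dim genes, other scalings, array weights, other row choices, an adjusted p of 0.01, each array left out, and the HepG2S1 arrays alone, the last chosen after seeing the data), no result turned its direction while called. Over 1086 cadherin fold changes under these settings, a call was kept in 371, lost in 29 and gained in 14, and 672 were not called either way. CDH1, CDH2, CDH3, CDH5 and CDH16 kept their calls against HepG2 in every setting that tested them, and the CDH1 fold change with the drug at 20% O2 lay between -4.59 and -4.42. Leaving out genes below the 33rd percentile of mean level lowered the cadherins called against HepG2 to 1 for each HepG2S1 group, because CDH2 alone passed that filter. For 2% O2 against 20% O2 under the drug the count of 0 became 1 with 75th percentile scaling and with array weights (CDH16) and in the HepG2S1 arrays alone (CDH3), and ranged from 0 to 1 when single arrays were left out. Those arrays were HepG2 replicate 3, replicate 1 of the drug at 20% O2 and replicate 3 at 2% O2. For 2% O2 against withdrawn cells the count of 1 became 2 with trend moderation and 0 with the 2 groups alone, the dim-gene filter, all rows and an adjusted p of 0.01, and ranged from 0 to 1 when single arrays were left out (lost without any 1 withdrawn array, replicates 1 and 2 at 2% O2, or replicates 3 and 4 of the drug at 20% O2). CDH6 and CDH11 gained a call at 2% O2 against HepG2 with 75th percentile scaling. Leaving out single arrays gave 5 to 6 called with the drug at 20% O2 against HepG2, 5 to 6 after withdrawal, 5 to 7 at 2% O2 against HepG2, and 0 for withdrawal within HepG2S1. Replicate numbers were given in accession order. No paired analysis was possible because the labels carry no replicate numbers shared between groups. Low signal limits CDH6, CDH11, CDH17 and the HepG2S1 values of CDH1.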
